A study of Mus musculus with 137 samples.

Results

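Crypt and villus tissue from the duodenum of untreated mice was compared at day 91 in 8 of the 137 libraries of the series. The 8 libraries came from 4 of its 71 mice. They were chosen by their labels alone, as every mouse at 0 ppm Cr(VI) and 90 days of exposure for which both a crypt and a villus library was present (mice 3, 5, 6 and 7). A crypt library of mouse 8 from the same group had no villus partner and entered no paired value. The animals were wildtype female B6C3F1 mice, a hybrid laboratory strain, and received drinking water without Cr(VI) (ages are not given in the sources used here), so both compartments shared the animal, the sex and the absence of treatment. RNA was read by TempO-Seq, in which pairs of short detector oligos are joined on their target RNA and counted, from formalin-fixed, paraffin-embedded sections. A pathologist had removed the crypt region from a section by microdissection, and the villi from its neighbour. Whatever remained on the slide was processed, so no cell type was selected and a compartment is a region of tissue.

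The inner surface of the small intestine is folded into villi that project into the lumen and crypts that open between them. Stem cells at the crypt base divide and feed a zone of rapidly cycling progenitors above them, while Paneth cells beside the stem cells secrete antimicrobial peptides. Daughter cells move up onto the villus, leave the cell cycle and become mostly enterocytes, which digest and absorb nutrients, until they are shed at the tip. The comparison asked how far this axis was separated in the 2 kinds of section, gene by gene, in mice that had received no chromium.

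The crypt libraries held 3330269 to 5136000 counts and the villus libraries 1667014 to 2678299, and in each of the 4 mice the crypt library was the deeper. The crypt libraries had counts for 17032 to 20705 probes and the villus libraries for 13091 to 15835. Levels are given in CPM, counts relative to the library total, after scaling by trimmed means (TMM), and differences as log2 of crypt over villus with their standard error. The median log2 difference over all 18998 genes tested was 0.34. It was 0 when the 5970 genes with at most 3 counts in every library of a compartment were set to their bound. Genes at that floor in both compartments, and those whose bound would have changed sign, were set to 0. The median of 0 therefore follows in part from that rule. The median of a gene list is to be read against 0.34 and 0. A bound takes 3 counts per library as the floor (0.728 CPM in the crypt of mouse 3, 1.58 CPM in the villus of mouse 5), which covers counting error only. Enzymes of the pancreatic acinar cell, which makes the digestive juice of the neighbouring pancreas, stood apart in some libraries. Their 18 tested genes summed to 181887 CPM in the crypt library of mouse 5, 65030.2 CPM in the villus library of mouse 7, 26731 CPM in the crypt of mouse 7 and 6738 CPM in the villus of mouse 5. In the other 4 libraries the sum was 13.7 to 48.7 CPM. The villus library of mouse 7 was also the highest of the 4 villi for the summed stem cell, mitosis, Paneth cell, ribosomal protein, smooth muscle and fibroblast genes. The counts without these mice and without the pancreatic genes are given with the comparison.

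Of the 18998 genes tested, 1648 (8.67%) were higher in the crypt and 466 (2.45%) were higher in the villus at an adjusted p under 0.1 (edgeR quasi-likelihood test with the mouse as a block). In 8.03% of the tested genes the 4 crypt libraries all lay above the 4 villus libraries, and in 3.32% they all lay below. The unpaired crypt library of mouse 8 is left out here and wherever overlap is stated. For some genes, such as Olfm4 (157 CPM) and Mmp7 (198 CPM), it lay below the highest of the 4 villi. For others, such as Top2a (142 CPM), it lay above all 4. The counts of each list are to be read against these shares, 8.67% for the crypt and 2.45% for the villus. The share of tested genes called in either direction was 11.1%, and it rose with level. It was 2.1% for genes under 10 CPM in the higher compartment, 16.6% at 10 to 100 CPM and 43.6% above 100 CPM. For lists of abundant genes the shares of 8.67% and 2.45% are therefore a low measure. In sections of bulk tissue, fewer cells of a type and less RNA per cell cannot be told apart. Genes higher in the crypt made up 78% of the calls, but 67.4% with DESeq2 size factors in the same fit and 62.6% with DESeq2 on all libraries without the mouse. The 1905 genes above 100 CPM in the higher compartment gave 501 calls for the crypt and 329 for the villus. The 6363 of 10 to 100 CPM gave 927 and 132, and the 10730 under 10 CPM gave 220 and 5. The counts fell to 372 and 245 with library size (log10) as a covariate, and to 606 and 353 when the spread was estimated from the 8 paired libraries alone. Without mice 5 and 7, which carried most of the pancreatic RNA, 1071 genes were higher in the crypt and 339 in the villus. With all mice but without the pancreatic acinar genes, removed before scaling, the counts were 1713 and 487. Leaving out mouse 5 alone gave 1015 for the crypt, leaving out mouse 3 alone gave 293 for the villus, and leaving out mouse 7 alone gave 1911 and 422.

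**Figure D1:**
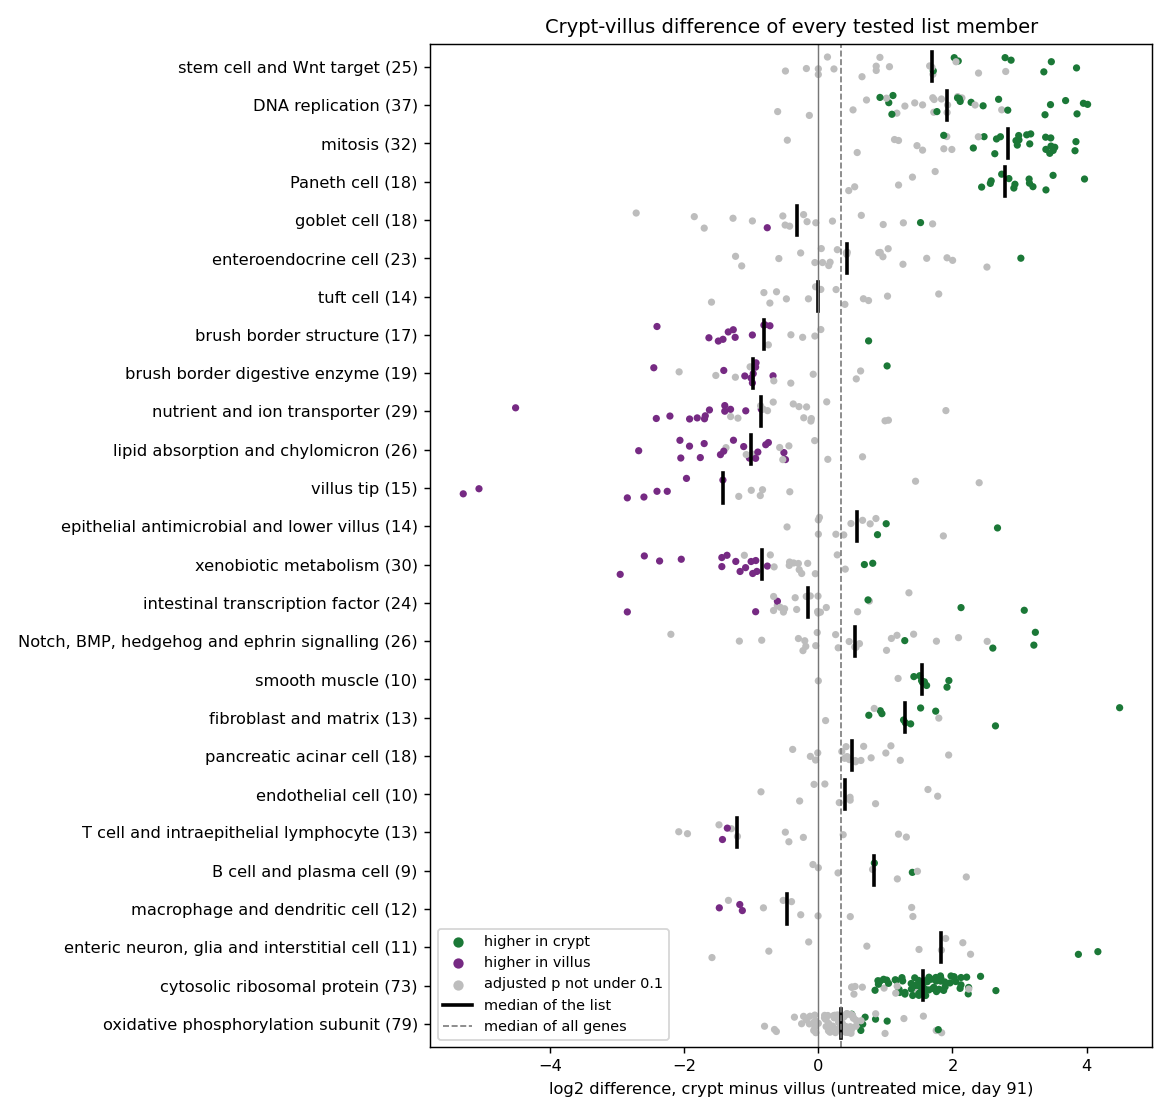
Log2 difference between crypt and villus for every tested member of the gene lists other than the Brunner gland and erythrocyte lists (1 point a gene, number tested in brackets), coloured by the side on which it was higher at an adjusted p under 0.1, with the list medians as black bars and the median of all genes (0.34) dashed. The Paneth cell, mitosis and ribosomal protein lists lie to the right of the dashed line, apart from 1 mitosis gene, and the lipid, brush border and villus tip lists mostly to the left of 0.

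The largest differences in the crypt direction joined cell division, ion transport and Paneth cell products. They were taken as the genes of at least 50 CPM in the higher compartment with the largest log2 difference among the calls whose 2 sets of libraries did not overlap. Mcm2, a subunit of the helicase that opens DNA for replication, measured 71.8, 65.2, 72.8 and 72.8 CPM in the crypts of mice 3, 5, 6 and 7. The villi of the same mice had 0, 7.39, 3.45 and 13.4 CPM. The 4 paired crypt values were nearly equal and all far above the villi, a log2 difference of 3.69 ± 0.48, adjusted p = 2.8e-10. The unpaired crypt of mouse 8 had 33.7 CPM, also above all 4 villi. Cdca3, which promotes entry into mitosis, followed with 65.7, 34.4, 55 and 80.5 CPM in the crypts against 0, 5.8, 0 and 33.7 CPM in the villi, where the highest villus value, in mouse 7, came close to the lowest crypt value (log2 difference 3.58 ± 0.68, adjusted p = 3.1e-05). Fam210a, a mitochondrial protein, had 59.7, 78, 51.3 and 48.7 CPM in the crypts against 0, 4.75, 3.83 and 23.7 CPM in the villi (3.34 ± 0.47, adjusted p = 5.7e-09). The other members, Ang4, Cenpe, Defa22, Defa32 and Slc12a2, are described with their groups.

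In the villus direction Ada came first. Ada codes for adenosine deaminase, an enzyme of purine breakdown. The crypts of mice 3, 5, 6 and 7 held 0.97, 6, 6.49 and 2.5 CPM and the villi 624, 285, 89.3 and 59.3 CPM. All 4 villi were above all crypts, although the villi themselves spanned a wide range, and the log2 difference was -5.29 ± 0.62, adjusted p = 2.4e-12. Enpp3, an ectoenzyme that cleaves nucleotides outside the cell, was abundant, with 243, 540.0, 410.5 and 374 CPM in the crypts against 5158, 4963, 2881 and 2402 CPM in the villi. Its difference of -3.26 ± 0.26, adjusted p = 2.3e-23 was large beside the spread of either compartment. Ncoa4, the receptor that delivers ferritin for breakdown, had 139, 66.6, 159 and 126 CPM in the crypts and 1104, 891, 801 and 696 CPM in the villi (-2.87 ± 0.29, adjusted p = 9.5e-16). Akp3, an intestinal alkaline phosphatase of the brush border, had 791, 380.1, 1014 and 461 CPM and 5643, 5619.6, 3959 and 2457 CPM (-2.76 ± 0.30, adjusted p = 3.5e-14). Both were higher in every villus by several fold. Ugt2b38, of the family that couples glucuronic acid to drugs and bilirubin, had 8.49, 19.1, 50.8 and 13.7 CPM in the crypts and 239, 400.4, 318 and 171 CPM in the villi (-3.82 ± 0.62, adjusted p = 5.5e-07). Sprr2a1, a small proline-rich protein, had 13.3, 5.46, 51.9 and 45.6 CPM and 141, 71.7, 244 and 183 CPM (-2.74 ± 0.35, adjusted p = 1.7e-10), and Cldn4, a tight junction claudin, had 8, 3.27, 4.82 and 4.04 CPM and 181, 31.7, 20.3 and 11.9 CPM (-2.71 ± 0.80, adjusted p = 0.017). For Cldn4 the villus of mouse 3 was far above the other villi. Akp3, Ugt2b38 and Sprr2a1 have close relatives in their families, and how far a probe reads a relative was not tested.

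**Figure D2:**
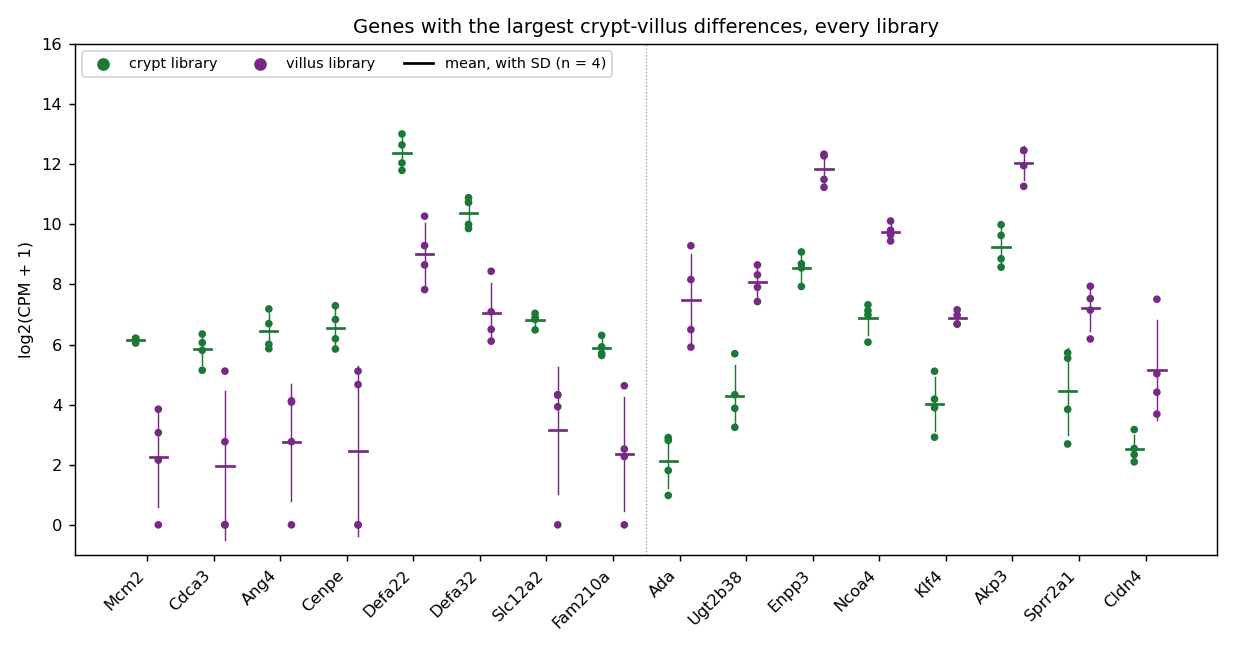
Level of the 16 genes with the largest differences in each of the 4 crypt (green) and 4 villus (purple) libraries on a log2(CPM + 1) scale, with the mean (bar) and SD (line, n = 4). The 8 genes on the left were higher in the crypt and the 8 on the right in the villus, and within each gene the 2 colours do not overlap.

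Of the 25 stem cell and Wnt target genes, 8 were higher in the crypt and none in the villus, with a median log2 difference of 1.69, or 1.06 with genes at the floor set to their bound. The count was 3 with library size as a covariate. The Wnt pathway keeps the crypt base proliferative, and its targets include feedback inhibitors and stem cell markers. Slc12a2, the basolateral sodium, potassium and chloride cotransporter of crypt cells, had 130.5, 113, 88.6 and 119 CPM in the crypts and 18.9, 14.2, 0 and 19.1 CPM in the villi (3.36 ± 0.48, adjusted p = 8.8e-09). Olfm4, a secreted marker of crypt base stem cells, had 321, 352, 297 and 354 CPM in the crypts. Its villus values were 61.3, 65.9, 0 and 189 CPM, with the villus of mouse 7 well above the other villi (2.78 ± 0.50, adjusted p = 9.5e-06), and its call was lost in 4 of 19 settings. The Wnt feedback inhibitor Axin2 had 226, 312, 197 and 287 CPM against 57.8, 65.4, 48.3 and 184 CPM (1.71 ± 0.29, adjusted p = 1.1e-06). Another inhibitor, Nkd1, had 34.2, 25.1, 23.2 and 29.1 CPM against 0, 0, 0.383 and 14.9 CPM (3.85 ± 0.68, adjusted p = 4.4e-06), with the villus value of mouse 7 again the highest. The receptor Lgr5, the best known marker of these stem cells, was near the floor of detection with 0, 11.5, 1.11 and 2.31 CPM and 4.98, 1.58, 0 and 0 CPM (1.06 ± 0.92, adjusted p = 0.64). Ascl2, a transcription factor of the same cells, had 6.3, 1.64, 0 and 0.963 CPM and at most 3 counts in every villus (adjusted p = 0.49). No difference of either gene was detected, and the part of depth or of the probe in this was not tested.

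Among the 37 genes of DNA replication, 18 were higher in the crypt and none in the villus (median log2 difference 1.92, at bound 1.84). Of the 32 mitosis genes, 22 were higher in the crypt and none in the villus (median 2.83, or 2.64 with genes at the floor set to their bound). With library size as a covariate 3 replication and 7 mitosis genes passed. The summed mitosis genes were 1003 to 1727 CPM in the crypt libraries and 74.7 to 672 CPM in the villus libraries. Rrm1, the large subunit of the reductase that makes deoxynucleotides, had 172, 143, 131 and 159 CPM in the crypts and 27.4, 50.1, 8.81 and 91.4 CPM in the villi (2.11 ± 0.36, adjusted p = 2.6e-06). Uhrf1, which carries DNA methylation through replication, had 15.5, 29.2, 21.1 and 27.9 CPM and 0, 0, 0 and 10.7 CPM (3.86 ± 0.80, adjusted p = 0.00017). Mouse 7 had the highest villus value of both. Mcm3, another helicase subunit, had 26.4, 41.5, 35 and 55.1 CPM in the crypts but 0, 0, 0 and 44 CPM in the villi, where all the counts came from mouse 7 (4.01 ± 0.86, adjusted p = 0.00027). The call of Mcm3 was lost in 4 of 19 alternative settings. Mcm4 was low, with 8.73, 1.91, 2.78 and 2.5 CPM in the crypts and at most 3 counts in each villus, a ratio of at least 2.96-fold against a floor of 3 counts per library, and did not pass (adjusted p = 0.15).

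Top2a, the topoisomerase that untangles chromosomes, had 170.0, 155, 142 and 231 CPM in the crypts and 24.9, 28.5, 5.75 and 90.3 CPM in the villi (2.66 ± 0.39, adjusted p = 2.1e-08). Aurkb, a kinase of the chromosomal passenger complex, had 110.1, 84.9, 67.6 and 149 CPM and 5.48, 7.39, 3.45 and 57.8 CPM (3.17 ± 0.43, adjusted p = 1.9e-09). Cenpe, a kinesin of the kinetochore, had 72, 113, 56.7 and 155 CPM and 24.4, 0, 0 and 33.7 CPM (3.45 ± 0.48, adjusted p = 5e-09). In all 3 the crypts lay above the villi in every mouse, and mouse 7 had the highest villus. The proliferation marker Mki67 had 29.1, 33.6, 43.6 and 58.5 CPM in the crypts and 30.9, 15.8, 5.75 and 25.6 CPM in the villi, which overlapped, and did not pass (1.20 ± 0.49, adjusted p = 0.14), although it did without mouse 3 (1.62). Cdk1, the kinase that drives mitosis, had 24.2, 9, 23.2 and 27.3 CPM and 8.97, 0, 4.98 and 13.4 CPM (1.92 ± 0.85, adjusted p = 0.19). Ccnb2, a mitotic cyclin, had counts in all 4 crypts and at most 3 counts in any villus, which puts it at least 5.39-fold higher in the crypt.

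Mitosis genes moved together here, and their start regions are shown for that reason. The windows are the 110 bases before the annotated start of 3 members and of Krt20, a keratin that was higher in the villus, from RefSeq on GRCm38.p6. Capitals mark the CCAAT box (CCAAT or its reverse complement ATTGG) and the cell cycle element TTTGAA (reverse complement TTCAAA), and in Krt20 the TATA box (TATAAA, reverse complement TTTATA). Each is written 5′ to 3′ on the strand of the gene. The windows lie at chr11:99024190-99024299 (minus strand) for Top2a, chr13:100786487-100786596 (minus strand) for Ccnb1, chr4:118437344-118437453 (minus strand) for Cdc20 and chr11:99438154-99438263 (minus strand) for Krt20.
Top2a: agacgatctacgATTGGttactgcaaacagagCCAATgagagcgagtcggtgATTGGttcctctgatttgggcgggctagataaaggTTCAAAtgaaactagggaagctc
Ccnb1: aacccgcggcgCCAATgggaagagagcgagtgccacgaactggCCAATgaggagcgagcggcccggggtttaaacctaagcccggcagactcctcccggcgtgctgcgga
Cdc20: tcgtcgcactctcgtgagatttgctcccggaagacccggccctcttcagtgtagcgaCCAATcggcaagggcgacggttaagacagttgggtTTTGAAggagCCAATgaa
Krt20: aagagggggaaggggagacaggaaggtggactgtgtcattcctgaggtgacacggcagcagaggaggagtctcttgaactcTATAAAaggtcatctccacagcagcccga
In the 250 bases before the start, on either strand, 21 of 26 mitosis genes with a window held a CCAAT box (80.8%), against 34.5% of all 27025 genes with a window. At least 2 were found in 53.8% of them against 10.5% of all genes, and TTTGAA in 30.8% against 16.3%. Some other lists held TTTGAA at least as often, such as xenobiotic metabolism (39.3%) and fibroblast genes (33.3%). Among DNA replication genes 61.3% held a CCAAT box and 12.9% held the cell cycle element. The TATA box was found in no mitosis window but in 6 of 13 Paneth cell, 6 of 16 digestive enzyme and 7 of 22 lipid genes, against 13% of all genes. It was also found in 6 of 15 pancreatic acinar genes, a list without a call. Lists that leaned to the villus held it less often than all genes in 2 cases, brush border structure (1 of 16) and transporters (2 of 25). CCAAT and its reverse complement can share the letters AT, and a match is a description of the sequence only.

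Paneth cell genes showed some of the largest differences. Of the 18 tested members 13 were higher in the crypt and none in the villus, the median was 2.79, and all 18 differences were above 0. Their sum was 12757 to 25224 CPM in the crypt libraries and 925 to 4866 CPM in the villus libraries. Defa22, an antimicrobial alpha-defensin, had 6386, 8225, 3551 and 4215 CPM in the crypts and 400.3, 626, 226 and 1234 CPM in the villi (3.39 ± 0.37, adjusted p = 3.8e-14). Defa24 had 7847, 6949.8, 3482 and 4003 CPM and 542, 772, 258 and 1192 CPM (3.15 ± 0.34, adjusted p = 7.3e-14), and Defa32, outside the list, 1697, 1893, 927 and 1021 CPM and 89.7, 135, 68.2 and 346 CPM (3.37 ± 0.40, adjusted p = 5.6e-12). For all 3 the crypts of mice 3 and 5 were above those of mice 6 and 7, and mouse 7 had the highest villus. The alpha-defensin genes are near-identical copies, so which copy a probe counted is uncertain. Lyz1, the Paneth cell lysozyme, had 3425, 3692, 1729 and 1875 CPM and 291, 249, 134 and 638 CPM (3.20 ± 0.35, adjusted p = 1.3e-13). Mmp7, the protease that activates the defensins, had 415, 526, 315 and 377 CPM and 30.9, 116, 27.2 and 204 CPM (2.56 ± 0.41, adjusted p = 2.4e-07). Ang4, an antimicrobial ribonuclease, had 144, 103, 57.1 and 63.4 CPM and 16, 5.8, 0 and 16.4 CPM (3.50 ± 0.58, adjusted p = 1.2e-06). Villus libraries were not free of these genes, since their lowest Paneth cell sum was 925 CPM. Defa22, Lyz1, Mmp7 and several other markers named here were also used by the study on these samples to check the dissection, so their direction is not independent evidence.

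Few genes of the other secretory cells passed. Of 18 goblet cell genes 1 was higher in the crypt and 1 in the villus, and the median was -0.32. Spink4, a protease inhibitor of goblet cells, had 367, 216, 238 and 246 CPM in the crypts and 110.2, 77, 56.3 and 139 CPM in the villi (1.52 ± 0.26, adjusted p = 2.8e-06). Clca1, a protease secreted with mucus, had 262, 313, 473 and 289 CPM and 626, 737, 642 and 313 CPM (-0.76 ± 0.25, adjusted p = 0.036), where mouse 7 showed nearly equal levels. Its call was lost in 5 of 19 settings, among them without mouse 3 (-0.61) or mouse 5 (-0.59). The gel-forming mucin Muc2 had 106, 108, 145 and 89.4 CPM and 175, 185, 219.9 and 81.9 CPM and did not pass (-0.49 ± 0.26, adjusted p = 0.32). Of 23 enteroendocrine genes only Scg2 passed, higher in the crypt, and of 14 tuft cell genes none did. Chga, a granule protein of hormone-secreting cells, had 130.5, 117, 61.9 and 88.6 CPM and 66.3, 122, 103 and 61.2 CPM (0.18 ± 0.35, adjusted p = 0.88). Its relative Chgb had 125, 117, 76.7 and 83.8 CPM and 15.5, 86.5, 55.2 and 66.9 CPM (0.96 ± 0.40, adjusted p = 0.14), and passed without mouse 5 (1.17), mouse 6 (1.16) or mouse 7 (1.25). The enteroendocrine transcription factor Neurod1 had 12.9, 39.3, 14.6 and 22.5 CPM and 17.9, 19.5, 24.5 and 17.2 CPM (0.044 ± 0.62, adjusted p = 1). Libraries of both compartments overlapped for all 3. Dclk1, a tuft cell kinase, had 24.5, 22.9, 10.9 and 15.4 CPM and 26.9, 18.5, 19.2 and 8.8 CPM (0.037 ± 0.62, adjusted p = 1), and the taste channel Trpm5 15.5, 19.9, 14.6 and 15 CPM and 2.99, 32.7, 13.8 and 11.9 CPM (0.40 ± 0.65, adjusted p = 0.81).

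Genes of the brush border, the carpet of microvilli on the enterocyte, were higher in the villus. Of 17 structural genes 11 were higher in the villus and 1 in the crypt (median -0.81). Vil1, the actin bundler villin, had 3084, 5472, 4229.7 and 4739 CPM in the crypts and 7142, 7671, 7831 and 5831 CPM in the villi (-0.72 ± 0.16, adjusted p = 0.00069), a modest difference at a high level. Espn, another bundler, had 48.3, 80.5, 66.7 and 77 CPM and 174, 174, 238 and 176 CPM (-1.49 ± 0.32, adjusted p = 0.00027), and a further one, Pls1, 531, 611, 649 and 709 CPM and 1417, 1008, 1164 and 820.5 CPM (-0.80 ± 0.21, adjusted p = 0.0045). Without mouse 3 the difference of Pls1 was -0.61 and no longer passed. Krt20, the keratin of mature enterocytes, had the largest difference of the group, with 238, 354, 404 and 406 CPM in the crypts and 3106, 1781, 1767 and 1161 CPM in the villi (-2.41 ± 0.24, adjusted p = 2.5e-16). All 4 villi lay far above the crypts. Cdhr5, a cadherin that links microvilli, had 260.4, 410.4, 506 and 423 CPM and 1199.8, 1019, 907 and 656 CPM (-1.24 ± 0.22, adjusted p = 7.5e-06), and the scaffold Slc9a3r1 1036, 1919.7, 1225 and 1643 CPM and 3282, 2807, 2991 and 2227 CPM (-0.98 ± 0.20, adjusted p = 0.00011). The member higher in the crypt was Mylk, the myosin light chain kinase that smooth muscle also uses, with 519, 1153, 586 and 938 CPM and 266, 492, 451 and 695 CPM (0.75 ± 0.24, adjusted p = 0.029). Its call was lost in 8 of 19 settings, among them without mouse 5 (0.60).

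Of 19 digestive enzymes of the brush border 9 were higher in the villus and 1 in the crypt (median -0.97). Mgam, which splits starch fragments, had 2165, 3661, 3113 and 2908 CPM in the crypts and 5927, 6719, 6119.7 and 3869 CPM in the villi (-0.93 ± 0.17, adjusted p = 1.8e-05). Mme, the peptidase neprilysin, had 964, 724, 1110.3 and 655 CPM and 2668, 2356, 2615 and 1544 CPM (-1.41 ± 0.24, adjusted p = 1.7e-06). Both were higher in all 4 villi. Anpep, aminopeptidase N, went the other way with 1317, 2822, 1553 and 1428 CPM in the crypts and 938, 669.9, 1059.8 and 702 CPM in the villi (1.03 ± 0.22, adjusted p = 0.0003), and its call was lost in 5 of 19 settings. The probes of Sis and Lct, the sucrase and lactase genes, were low in both compartments and did not pass. Sis had 0, 0, 0 and 0.963 CPM and 0, 0, 6.51 and 0 CPM, and Lct 18.4, 5.73, 13 and 5.59 CPM and 15.5, 46.9, 39.1 and 9.95 CPM (-1.24 ± 0.99, adjusted p = 0.61).

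Of 29 nutrient and ion transporters 13 were higher in the villus and none in the crypt (median -0.86). Slc5a1, which brings glucose in with sodium, had 1076, 1612, 1734 and 1571 CPM and 2863, 2503, 3476 and 2011 CPM (-0.85 ± 0.20, adjusted p = 0.0011). Slc40a1, the iron exporter ferroportin, had 147, 129, 246 and 268 CPM and 539, 590.3, 840.3 and 709 CPM (-1.81 ± 0.28, adjusted p = 9e-08). Slc6a19, the neutral amino acid transporter, had 181, 317, 191 and 161 CPM and 859, 871, 595 and 427 CPM (-1.69 ± 0.27, adjusted p = 3e-07). The villi exceeded the crypts in every mouse for all 3. Slc46a1, the folate carrier, had 35.2, 14.2, 50.4 and 30.6 CPM and 201, 186, 144 and 132 CPM (-2.42 ± 0.43, adjusted p = 7e-06), also without overlap. The fructose and glucose carriers Slc2a5 and Slc2a2 did not pass. Slc2a5 had 9.46, 8.46, 11.7 and 11.9 CPM and 21.9, 19, 21.5 and 2.3 CPM (-0.37 ± 0.92, adjusted p = 0.92), with the lowest value in the villus of mouse 7, and Slc2a2 13.6, 31.9, 22.6 and 12.1 CPM and 20.4, 24.3, 24.1 and 23 CPM (-0.29 ± 0.55, adjusted p = 0.86). Cybrd1 and Heph, a pair of iron genes chosen after their values were seen, were higher in the villus. Cybrd1, a ferric reductase, had 0, 0, 0.927 and 0.578 CPM and 99.7, 7.91, 19.5 and 13.8 CPM (-4.51 ± 1.22, adjusted p = 0.0068), and Heph, a ferroxidase, 45.3, 35.7, 79.1 and 66.6 CPM and 204, 160.4, 206 and 119 CPM (-1.62 ± 0.31, adjusted p = 2.5e-05).

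Of 26 genes of lipid absorption 17 were higher in the villus and none in the crypt (median -1.01). Its sum was 28177 to 48689 CPM in the crypt libraries and 67066 to 92162 CPM in the villus libraries. Enterocytes rebuild absorbed fat and export it on chylomicrons with apolipoproteins. Apoa4 had 1917, 2207, 3697 and 3605 CPM in the crypts and 28672, 18963, 14882 and 11934 CPM in the villi (-2.68 ± 0.22, adjusted p = 3.9e-23). Apob, the structural protein of the particle, had 236, 83.8, 199.8 and 131 CPM and 949.6, 771, 554 and 409 CPM (-2.06 ± 0.29, adjusted p = 5.4e-09). Apoc2, which activates lipoprotein lipase, had 175, 262, 351 and 303 CPM and 1123, 1034, 979 and 894 CPM (-1.92 ± 0.24, adjusted p = 4.2e-11). None of the 3 overlapped between compartments, and each was highest in the villus of mouse 3. Apoa1, the main protein of high-density lipoprotein, had 3026, 7802, 4872 and 5114 CPM and 14876, 11416, 12985 and 9061 CPM (-1.27 ± 0.20, adjusted p = 1.4e-07). Fabp1, an abundant fatty acid binding protein, did not pass, with means of 2507 CPM in the crypts and 2696 CPM in the villi (-0.055 ± 0.20, adjusted p = 0.99).

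Ada belongs to the genes known from the upper villus and its tip. Of 15 of these, 8 were higher in the villus and none in the crypt (median -1.42, at bound -1.97). Slc28a2, a nucleoside carrier, had 0, 0, 0 and 0.963 CPM in the crypts and 70.3, 39.6, 14.2 and 9.56 CPM in the villi (-5.06 ± 1.06, adjusted p = 0.00021), again highest in mouse 3. Klf4, a transcription factor of differentiated epithelium, had 6.55, 13.9, 33.5 and 17.1 CPM and 142, 125, 102 and 102 CPM (-2.85 ± 0.39, adjusted p = 3e-09), with the 4 villi close together. Nt5e, the ectonucleotidase that makes adenosine, was low at 0, 2.46, 5.75 and 1.54 CPM and 26.4, 3.69, 0 and 3.83 CPM (-0.83 ± 1.96, adjusted p = 0.91). The summed tip genes were 1259 to 1865 CPM in the crypt libraries and 2993 to 6419.6 CPM in the villus libraries, highest in the villus of mouse 3 and lowest in that of mouse 7.

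Xenobiotic metabolism leaned to the villus, with 15 of 30 genes higher there and 2 in the crypt (median -0.84). With library size as a covariate 9 passed for the villus. The monooxygenase Cyp3a13 had 200.3, 189, 243 and 149 CPM in the crypts and 1433, 1243, 927 and 592 CPM in the villi (-2.37 ± 0.25, adjusted p = 1.7e-14). Cyp3a11 had 95.1, 119.5, 174 and 87.4 CPM and 966, 831, 823 and 357 CPM (-2.59 ± 0.31, adjusted p = 1.2e-11), and Cyp3a25 213, 192, 242 and 191 CPM and 381, 376, 624 and 282 CPM (-0.93 ± 0.26, adjusted p = 0.0087). The carboxylesterase Ces2c had 505, 759, 1602 and 1222 CPM and 1962, 1856, 3910.1 and 2857 CPM (-1.44 ± 0.19, adjusted p = 9.5e-10). All villi were above all crypts for these 4, which belong to families of close copies. On the crypt side Adh1, an alcohol and retinol dehydrogenase, had 1472, 2362, 1355 and 1502 CPM and 983, 910.0, 1011 and 821 CPM (0.81 ± 0.20, adjusted p = 0.0029), and the glutathione transferase Gstm3 376, 566, 609 and 535 CPM and 202, 121, 877 and 451 CPM (0.69 ± 0.24, adjusted p = 0.062). Gstm3 overlapped and lost its call in 12 of 19 settings, among them without mouse 3 (0.59) or mouse 5 (0.21). Adh1 lost it in 5 of 19.

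Of 14 epithelial antimicrobial genes 3 were higher in the crypt (1 with library size as a covariate) and none in the villus. Reg3g, a lectin that kills Gram-positive bacteria, had 38.3, 102, 124 and 21.4 CPM in the crypts and 0.997, 7.91, 18.4 and 14.2 CPM in the villi (2.67 ± 0.43, adjusted p = 4.5e-07), with the smallest gap in mouse 7. The unpaired crypt of mouse 8 had 7.86 CPM, below the villi of mice 5, 6 and 7. Nlrp6, an innate immune sensor, had 433, 715, 451 and 512 CPM and 273, 194, 248 and 323 CPM (1.01 ± 0.23, adjusted p = 0.00085). The relatives Reg3b and Reg3a overlapped and did not pass, Reg3b with 4.12, 12, 20.2 and 0.385 CPM and 0, 0, 16.1 and 9.95 CPM (0.86 ± 0.86, adjusted p = 0.69, and 2.17 without mouse 7, where it passed) and Reg3a with 59.2, 13.4, 19.6 and 7.32 CPM and 18.9, 15.3, 19.2 and 6.89 CPM (0.38 ± 0.77, adjusted p = 0.88).

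Of 24 transcription factors of the intestinal lineage, 3 were higher in the crypt (Klf5 and Nr5a2 among them), 3 in the villus (Klf4, Creb3l3 and Vdr) and 18 did not pass, with a median of -0.15. Klf5, a factor of proliferating crypt cells and the counterpart of Klf4, had 677, 873, 802 and 992 CPM in the crypts and 449.6, 455, 525 and 560.0 CPM in the villi (0.74 ± 0.24, adjusted p = 0.034), a small difference lost in 8 of 19 settings. Nr5a2, which drives crypt cell division and local steroid synthesis, had 71.8, 37.1, 39.1 and 58.5 CPM and 10.5, 6.86, 5.75 and 30.6 CPM (2.13 ± 0.48, adjusted p = 0.00072). Creb3l3, which turns on apolipoprotein genes, had 496, 823, 634 and 616 CPM and 1563, 1302, 1403 and 747 CPM (-0.93 ± 0.22, adjusted p = 0.001). The caudal factors that set intestinal identity did not pass. Cdx1 had 72.7, 40.1, 53.7 and 46.6 CPM and 45.4, 38.5, 20.7 and 23.7 CPM (0.76 ± 0.43, adjusted p = 0.36), and Cdx2 76.6, 37.1, 76.9 and 70.5 CPM and 37.4, 51.2, 35.3 and 45.5 CPM (0.59 ± 0.41, adjusted p = 0.52). Hnf4a, the nuclear receptor of enterocyte genes, had 240.3, 107, 258 and 194 CPM and 321, 359, 247 and 200.4 CPM (-0.52 ± 0.28, adjusted p = 0.34), with overlap between the compartments.

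Of 26 genes of Notch, BMP, hedgehog and ephrin signalling 4 were higher in the crypt and none in the villus. The count was 2 without mouse 3 or mouse 6 and 1 with library size as a covariate. Ephb2, a receptor that positions cells along the crypt, had 51.9, 52.4, 43.4 and 83.6 CPM and 0, 0, 14.9 and 19.9 CPM (3.24 ± 0.55, adjusted p = 2.4e-06), and its relative Ephb4 34.2, 44.5, 41 and 32.9 CPM and 0.997, 6.33, 11.1 and 8.03 CPM (2.60 ± 0.69, adjusted p = 0.0057). Grem1, a BMP antagonist of the cells beneath the crypt, had 7.27, 1.91, 7.97 and 4.43 CPM and at most 3 counts in each villus, which is at least 4.02-fold higher (adjusted p = 0.051, lost in 8 of 17 settings, among them without any 1 of the 4 mice). Notch1 had 46.3, 64.4, 40.4 and 46.8 CPM and 27.9, 5.8, 20.3 and 54.3 CPM (1.09 ± 0.43, adjusted p = 0.12, and 1.61 without mouse 7, where it passed), and its ligand Dll1 13.3, 13.4, 12.2 and 6.93 CPM and 9.47, 45.9, 12.6 and 4.59 CPM (-0.19 ± 0.85, adjusted p = 1). The probe of Notch2 had at most 2.46 CPM in any of the 8 libraries.

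Proteins of the cytosolic ribosome gave the most calls of any list, with 63 of 73 higher in the crypt, none in the villus and all 73 differences above 0. The median log2 difference was 1.56, beside 0.34 over all genes. The sum was 25798 to 37655 CPM in the crypt libraries and 7335 to 17417 CPM in the villus libraries, and the crypt exceeded the villus 3.39, 4.58, 3.52 and 1.71 times in mice 3, 5, 6 and 7. Mouse 7 had the smallest ratio and the highest villus. Rpsa, of the small subunit, had 495, 929, 448 and 671 CPM in the crypts and 136, 67.5, 66.3 and 259 CPM in the villi (2.42 ± 0.25, adjusted p = 1.2e-14). Rpl14, of the large subunit, had 758, 1481, 750.2 and 1029.6 CPM and 149, 159.8, 148 and 501 CPM (2.23 ± 0.25, adjusted p = 6.3e-13), and Rpl4 1907, 3465, 1943 and 2459 CPM and 464, 593, 537 and 1205 CPM (1.87 ± 0.20, adjusted p = 2.6e-14). None of these overlapped between compartments. Rpl3 had 579.8, 678, 537 and 648 CPM and 103, 106, 128 and 414 CPM (1.98 ± 0.26, adjusted p = 7e-10), and Rpl5 475, 851, 602 and 620.4 CPM and 154, 136, 130.3 and 348 CPM (1.83 ± 0.24, adjusted p = 8e-10). The count of ribosomal calls was 43 with library size as a covariate and reached 65 without mouse 7. Many ribosomal genes have processed copies in the genome, whose reads a probe could share.

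Of 79 subunits of the respiratory chain, 7 were higher in the crypt, close to the share of 8.67% over all genes, and none in the villus. The median was 0.34, as over all genes (0.30 at bound). The count was 3 without mouse 3 or mouse 5. Ndufb5, of complex I, had 213, 211, 204 and 237 CPM and 80.8, 119.7, 108 and 119 CPM (1.03 ± 0.25, adjusted p = 0.0019), and Ndufa9 449, 553, 488 and 577 CPM and 279, 236, 274 and 362 CPM (0.85 ± 0.21, adjusted p = 0.0024). Atp5a1, of the ATP synthase, had 967, 1333, 1189 and 1308 CPM and 767, 707, 974 and 951 CPM (0.50 ± 0.18, adjusted p = 0.075) and lost its call in 11 of 19 settings, among them without mouse 3 (0.53) or mouse 5 (0.37). Its partner Atp5b had 182, 152, 224 and 186 CPM and 128, 178, 159 and 96.4 CPM (0.43 ± 0.25, adjusted p = 0.38).

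**Figure D3:**
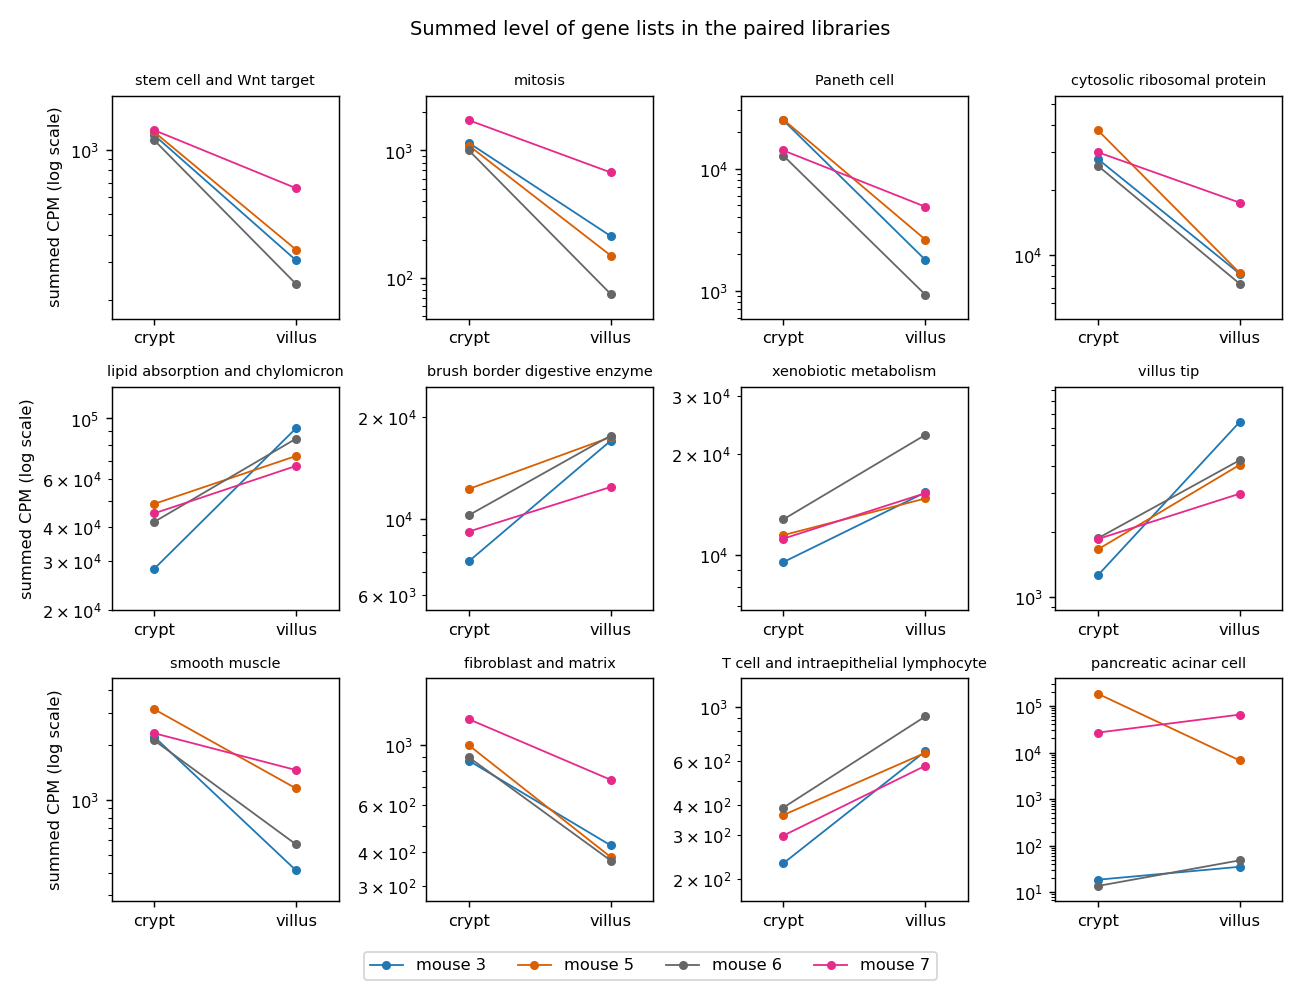
Summed CPM of 12 gene lists in the crypt and villus library of each mouse, joined by a line (log scale, 1 colour a mouse). Every line falls for the stem cell, mitosis, Paneth, ribosomal, smooth muscle and fibroblast lists and rises for the lipid, digestive enzyme, xenobiotic, villus tip and T cell lists, whereas the pancreatic lines cross.

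Markers of some cells other than the epithelium also differed between the compartments. Of 10 smooth muscle genes 8 were higher in the crypt and none in the villus (median 1.55), with a sum of 2117 to 3132 CPM in the crypt libraries and 411 to 1455 CPM in the villus libraries. Myh11, the smooth muscle myosin, had 251, 291, 325 and 280.2 CPM and 42.4, 128, 78.9 and 207 CPM (1.54 ± 0.35, adjusted p = 0.00074). Des, the intermediate filament desmin, had 315, 335, 197 and 242 CPM and 50.3, 175, 60.9 and 168 CPM (1.42 ± 0.29, adjusted p = 0.00012), and the actin Acta2 90.2, 64.1, 81.5 and 61.2 CPM and 0.498, 45.9, 16.1 and 39.8 CPM (1.95 ± 0.60, adjusted p = 0.023). Without mouse 3 Acta2 no longer passed (1.09). Synpo2, an actin-binding protein of muscle, had 319, 772, 359.9 and 475 CPM and 71.3, 92.8, 114 and 263 CPM (1.92 ± 0.28, adjusted p = 3e-08). The count of smooth muscle calls was 5 with library size as a covariate. Of 13 fibroblast and matrix genes 10 were higher in the crypt and none in the villus (median 1.30), with a sum of 874 to 1244 CPM in the crypt libraries and 373 to 742 CPM in the villus libraries. The collagen gene Col1a1 had 128, 153, 151 and 308 CPM and 123, 17.4, 34.1 and 154 CPM, with overlap (1.53 ± 0.31, adjusted p = 8.4e-05). Lum and Dcn, matrix proteoglycans, did not overlap, Lum with 46.6, 31.9, 28.7 and 25.4 CPM and 0, 0, 0 and 10.7 CPM (4.49 ± 1.01, adjusted p = 0.00066) and Dcn with 159.8, 129, 101 and 127 CPM and 12, 58, 37.5 and 58.9 CPM (1.75 ± 0.37, adjusted p = 0.00027). The count of fibroblast calls was 1 with library size as a covariate and 5 without mouse 3. Of 11 genes of enteric neurons, glia and interstitial cells 2 (Vip and Elavl4) were higher in the crypt and none in the villus. In this list 3 genes had a difference below 0, and the median was 1.84, or 0.91 with genes at the floor set to their bound. Its count was 0 with library size as a covariate. The neuropeptide Vip of the gut nerves had 27.9, 43.4, 34.7 and 70.9 CPM and 0, 11.1, 0 and 3.06 CPM (4.17 ± 0.94, adjusted p = 0.00061), and the neuronal protein Elavl4 9.46, 11.7, 2.41 and 13.9 CPM against at most 3 counts in each villus (adjusted p = 0.012). Most smooth muscle and fibroblast markers, with Vip and Elavl4, were thus higher on the crypt side in untreated mice at day 91. Their part in the other crypt calls was not tested. Endothelial genes had a median of 0.39, near that of all genes (0.34), and at 180 ppm the fibroblast median was -0.43.

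Among immune markers, 2 of 13 T cell and 3 of 12 macrophage and dendritic cell genes were higher in the villus, beside 2.45% of all genes. For the crypt it was 2 of 9 B cell genes, beside 8.67% of all genes. The summed T cell genes in the villus were 1.79 to 2.85 times the crypt level in the 4 mice. The summed macrophage and dendritic cell genes were 1.56 to 3.27 times that level, whereas the summed B cell genes were higher in the crypt in all 4 mice. Of 13 T cell and intraepithelial lymphocyte genes 2 were higher in the villus, with a list median of -1.21. Gzma, a granzyme of cytotoxic cells, had 61.8, 165, 168 and 144 CPM in the crypts and 312, 312, 385 and 296 CPM in the villi (-1.36 ± 0.30, adjusted p = 0.00049), and the chemokine Ccl5 33.5, 30.6, 42.8 and 25.8 CPM and 91.7, 82.3, 132 and 62.3 CPM (-1.43 ± 0.44, adjusted p = 0.023). Cd3e, of the T cell receptor complex, had 17, 12.6, 10.9 and 13.5 CPM and 55.8, 29.5, 38.3 and 33.7 CPM and did not pass (-1.48 ± 0.69, adjusted p = 0.22), although the compartments did not overlap. Of 12 macrophage and dendritic cell genes the 3 that passed were the class II antigen presentation genes H2-Aa, Cd74 and H2-Ab1, which enterocytes can also express. They held much of the summed level of this list, whose median was -0.46. In the villus of mouse 6, Cd74 at 1726 CPM and H2-Aa at 1336 CPM were part of a sum of 3735 CPM. H2-Aa had 142, 391, 461 and 354 CPM and 587, 1067, 1336 and 655 CPM (-1.48 ± 0.25, adjusted p = 1.2e-06), and Cd74 259, 714, 756 and 667 CPM and 932, 1489, 1726 and 1007 CPM (-1.17 ± 0.23, adjusted p = 3.7e-05). Of 9 B cell and plasma cell genes 2 were higher in the crypt. One, the B cell receptor component Cd79a, had 20.4, 95, 56.9 and 61.2 CPM and 11.5, 17.4, 56.7 and 10.7 CPM (1.40 ± 0.44, adjusted p = 0.026) and lost its call in 7 of 19 settings. No gene of the endothelial (10 tested), pancreatic acinar (18), Brunner gland (2) or erythrocyte (3) lists passed. For the trypsinogen gene Prss1 the levels were 0.485, 6149.7, 0.185 and 1075 CPM in the crypts and 0, 218, 9.2 and 2996 CPM in the villi, so the compartments differed in opposite directions in mice 5 and 7. Its log2 difference was -0.12 ± 0.51 with all mice, -1.83 without mouse 5 and 1.60 without mouse 7. Acinar calls appeared when a mouse was left out, 16 of 18 for the crypt without mouse 7 and 13 for the villus without mouse 5. The Brunner gland mucin Muc6 had 62.8 CPM in the villus of mouse 5 and at most 2.18 CPM elsewhere, and haemoglobin genes were at or near 0 in all 8 libraries.

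The difference was then compared with that of untreated mice at day 8, for which 5 mice had both compartments. Between the days, 0.263% of genes (50) had a difference that was more toward the crypt at day 91 and 0.0105% (2) more toward the villus. Paneth cell genes held 4 of these, DNA replication and mitosis 1 each, and ribosomal proteins 4. For Mcm2 the log2 difference was 3.69 at day 91 and 0.49 at day 8, a change of 3.20 ± 0.59, adjusted p = 0.0022. The lowest, median and highest of the 5 mice at day 8 were 24.9, 57.2 and 86.1 CPM in the crypts and 15.3, 53.1 and 64.1 CPM in the villi, which overlapped. Defa22 differed by 3.39 at day 91 and 1.05 at day 8 (change 2.35 ± 0.46, adjusted p = 0.0037). Its day 8 levels were 904, 6389 and 13766 CPM in the crypts and 845, 2129 and 8349.6 CPM in the villi. Fam210a changed by 3.02 ± 0.58, adjusted p = 0.0037. The immunoglobulin segment Igkv15-103, part of an antibody light chain, had 31, 22.1, 123 and 35.2 CPM in the crypts and 6.48, 0, 4.6 and 10.3 CPM in the villi at day 91, and its change was 3.18 ± 0.59, adjusted p = 0.0022. At day 8 the summed mitosis genes reached 1416 CPM in one villus library, above the median crypt of that day (1355 CPM), and fell to 527 CPM in one crypt library. The summed Paneth cell genes at day 8 ranged from 3216 to 41437 CPM in the crypts and from 3172 to 26145 CPM in the villi. The compartments thus overlapped widely on that day. Without mice 48 and 49 of day 8, whose compartments had stood apart in an earlier look at these data, the counts were 29 and 1. With all libraries thinned to the smallest total edgeR called 0 and 0 (1102 genes at an unadjusted p under 0.05, against 1197 without thinning). The counts were 3 and 0 with library size as a covariate, and 400 and 17 without mouse 7, so the number of genes that changed between the days depended on these settings and on single mice.

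The last comparison set the same difference against that of 5 mice that drank 180 ppm Cr(VI) for 90 days, the highest concentration. The untreated libraries are the same in both comparisons between groups. Between the doses, 0.805% of genes (153) had a difference that was more toward the villus at 180 ppm than without chromium, and 0.0421% (8) more toward the crypt. Ribosomal proteins held 23 of them, out of 73, all toward the villus. Their median log2 difference was 1.56 without chromium and 0.52 at 180 ppm. The summed ribosomal proteins at 180 ppm were 38325, 45468 and 48083 CPM in the crypts (lowest, median and highest of 5) and 19859.5, 31319 and 39963 CPM in the villi, so every library at 180 ppm lay above every untreated day 91 library of its compartment. Untreated villi of day 8 reached 28776 CPM, above the lowest villus at 180 ppm. Rpsa changed by -1.66 ± 0.33, adjusted p = 0.00095 and Rpl4 by -1.44 ± 0.26, adjusted p = 0.00025. Paneth cell, mitosis and DNA replication genes had no called change, and their medians at 180 ppm were 2.93, 2.43 and 1.75.

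Single genes changed more. The villus excess of Ada, -5.29 without chromium, was -0.75 at 180 ppm (change 4.59 ± 0.98, adjusted p = 0.0039), where Ada had 0, 0.931 and 12.9 CPM in the villi. Reg3g went from 2.67 to -0.30 (-2.98 ± 0.58, adjusted p = 0.00088), and Anpep from 1.03 to -0.42 (-1.45 ± 0.29, adjusted p = 0.0019). Gmds, which makes the sugar donor for fucose, had 132, 216, 169 and 249 CPM in the untreated crypts and 4.98, 11.6, 43.7 and 52.4 CPM in the villi, against 259, 448 and 567 CPM and 152, 355 and 438 CPM at 180 ppm (change -2.65 ± 0.40, adjusted p = 3e-06). Igfbp3, a binding protein of insulin-like growth factors, had 204, 284, 153 and 135 CPM and 186, 122, 163 and 34.8 CPM without chromium and changed by -2.89 ± 0.39, adjusted p = 7e-08. Mpeg1, a pore-forming protein of macrophages, had 170.0, 320.4, 228 and 246 CPM and 256, 293, 322 and 228 CPM, and changed by -1.86 ± 0.32, adjusted p = 5.3e-05. Of 13 fibroblast genes 5 changed toward the villus, Pdgfra, a receptor of these cells, by -2.63 ± 0.47, adjusted p = 0.00024. The counts of 8 and 153 were 3 and 92 with a mean count of at least 10, 2 and 26 with library size as a covariate, and 21 and 369 without mouse 7. The villus libraries held 3030885 to 4574064 counts at 180 ppm, above the untreated villi, and the part of depth in the change was not tested beyond these alternatives.

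**Figure D4:**
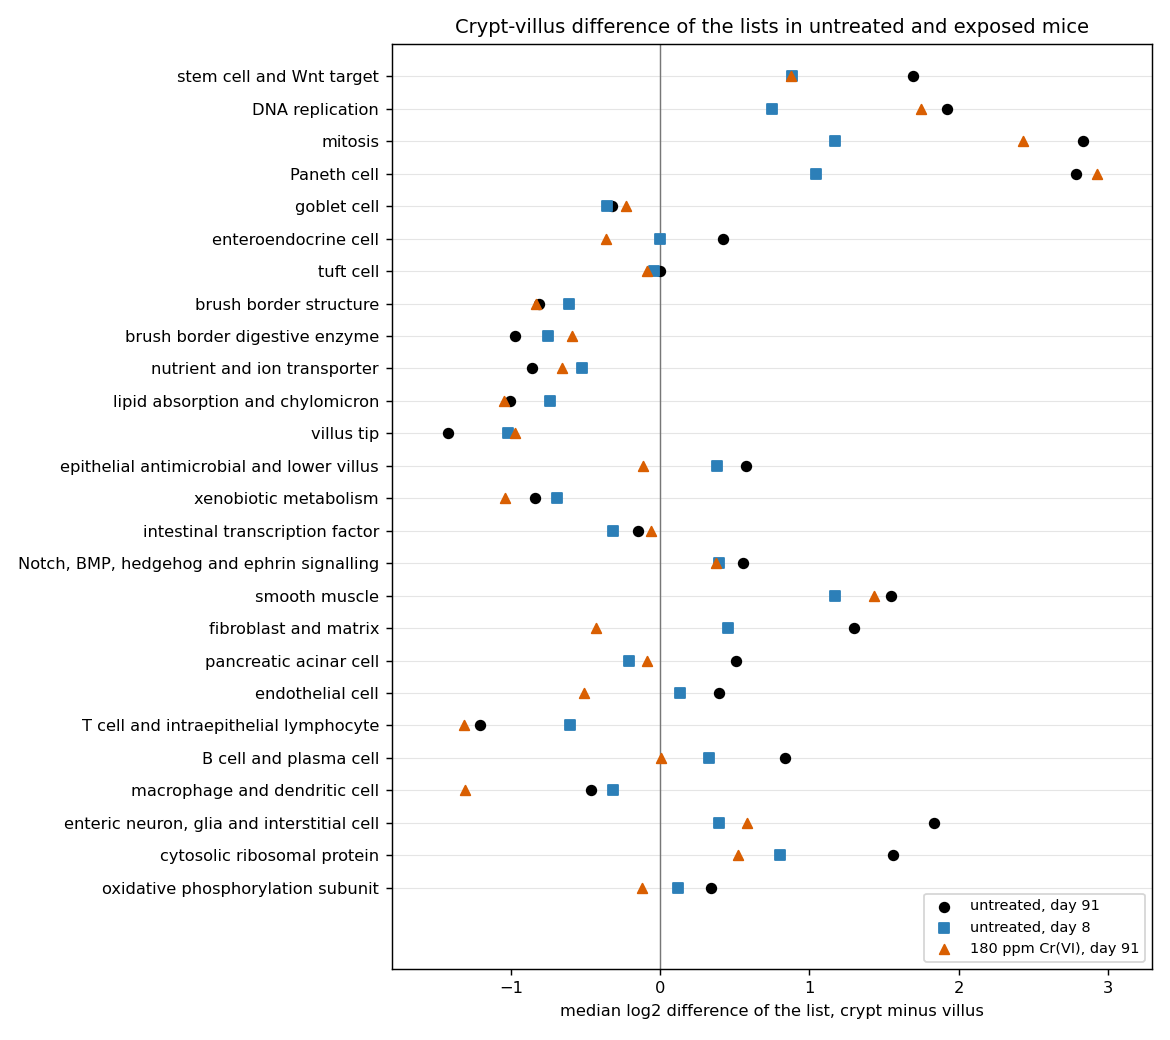
Median log2 difference between crypt and villus of each list (Brunner gland and erythrocyte lists left out) in untreated mice at day 91 (circles), untreated mice at day 8 (squares) and mice at 180 ppm Cr(VI) at day 91 (triangles). The Paneth cell, mitosis and DNA replication medians are lowest at day 8, whereas the ribosomal and fibroblast medians are lowest at 180 ppm.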

How the data were processed

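The authors sequenced TempO-Seq libraries from crypt and villus sections and deposited raw counts per probe, which were used here as they stand (30146 probes, 21450 genes). The submitters' processing notes name bcl2fastq 2.17.1.14 and Bowtie. The genome build of the probes is not given in the sources used here. A table of 137 libraries held 1463938 to 7199801 counts each, and their total sets the precision of low genes. Counts were scaled by TMM and fitted in edgeR 4.0.16 (R 4.3.3, limma 3.58.1) by quasi-likelihood with a trended dispersion. The fit took all libraries, the mouse as a block and 1 crypt-villus difference for each group of dose and time (85 coefficients, 52 residual degrees of freedom). The study's methods name DESeq2 and state no term for the mouse. Probes passing filterByExpr (26365) were tested and p-values adjusted by Benjamini and Hochberg over all of them at 0.1, as the study did. A gene was read from its probe with the highest total (18998 genes), with a prior count of 2, and the standard error is the log2 difference over the square root of F. Sections of a mouse pair by animal. Deviations from the group means correlated at 0.089 to 0.298 within a mouse and at a median of -0.103 over 12 other pairs (10014 probes). Each compartment was centred on its own mean, so values above 0 within a mouse push the other pairs below 0. The other pairs are therefore no independent comparison. The fit was tested on simulated data. DESeq2 1.42.0 and the other alternatives are in the closing section.

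The 28 gene lists (641 entries, 11 without a probe) and the comparison itself were chosen with earlier results of these data known. Genes named are the first 3 of each list, up to 3 called members with the smallest adjusted p and no overlap between compartments, up to 2 called members against the list's direction, the 8 largest differences each way of at least 50 CPM, and 4 for each change. Ccnb1, Ccnb2, Cdc20, Cybrd1, Fabp1, Heph, Pdgfra, Scg2 and Vdr are outside that rule and were chosen after their values were seen. A few genes that the rule or the lists hold are not reported here. Promoter windows are from RefSeq (GRCm38.p6), the first entry of a symbol, for 485 of 638 distinct list genes. Figures were drawn with matplotlib 3.10.9 in Python 3.11.15 with pandas 2.3.3 and numpy 2.4.6.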

Additional observations from a re-analysis of the deposited data

Results flagged for a closer look

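In 37 of 288 groups of 4 libraries of a compartment, 1 library lay far from the other 3 by Dixon's ratio (above 0.829), where chance gives about 5%. The groups are not independent, since genes share libraries. In 8 of them the other 3 libraries were at 0 CPM, which fixes the ratio at its highest value whatever the remaining library holds, so these are given as values only. Among the 275 groups with fewer than 3 libraries at 0, 29 had such a library. The summed erythrocyte genes of the crypt of mouse 5 amount to 3 counts. The villus library of mouse 7 accounted for 16 of all 37. It stood apart for the summed brush border digestive enzyme genes at 12465 CPM (others 17066 to 17665 CPM) and the summed intestinal transcription factor genes at 4231 CPM (others 5399 to 5485 CPM). Likewise apart were the summed fibroblast and matrix genes at 742 CPM (others 373 to 425 CPM) and the summed pancreatic acinar cell genes at 65030.2 CPM (others 35.4 to 6738 CPM). The same villus had the summed cytosolic ribosomal protein genes at 17417 CPM (others 7336 to 8229 CPM) and Axin2 at 184 CPM (others 48.3 to 65.4 CPM). Far from the other villi was Nkd1 at 14.9 CPM (others 0 to 0.383 CPM). This villus held Mcm3 at 44 CPM (others 0 CPM). In addition it had Uhrf1 at 10.7 CPM (others 0 CPM) and Aurkb at 57.8 CPM (others 3.45 to 7.39 CPM). Its further values were Slc2a5 at 2.3 CPM (others 19 to 21.9 CPM) and Lum at 10.7 CPM (others 0 CPM). It also had Prss1 at 2996 CPM (others 0 to 218 CPM) and Rpl3 at 414 CPM (others 103 to 128 CPM). Beside these it had Rpl5 at 348 CPM (others 130.3 to 154 CPM) and Rpl14 at 501 CPM (others 148 to 159.8 CPM).

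The crypt of mouse 5 stood apart for the summed goblet cell genes at 8583 CPM (others 2745 to 3540.3 CPM) and the summed pancreatic acinar cell genes at 181887 CPM (others 13.7 to 26731 CPM). The same library had the summed erythrocyte genes at 0.819 CPM (others 0 CPM) and Mcm2 at 65.2 CPM (others 71.8 to 72.8 CPM). The same library had Trpm5 at 19.9 CPM (others 14.6 to 15.5 CPM) and Anpep at 2822 CPM (others 1316 to 1553 CPM). The same library had Adh1 at 2362 CPM (others 1355 to 1502 CPM) and Cdx2 at 37.1 CPM (others 70.5 to 76.9 CPM). The villus of mouse 6 stood apart for the summed xenobiotic metabolism genes at 22890.0 CPM (others 14742 to 15367 CPM) and Espn at 238 CPM (others 174 to 176 CPM). The same library had Sis at 6.51 CPM (others 0 CPM) and Cd79a at 56.7 CPM (others 10.7 to 17.4 CPM). The crypt of mouse 3 stood apart for the summed intestinal transcription factor genes at 3734 CPM (others 4259 to 4352 CPM) and Mcm4 at 8.73 CPM (others 1.91 to 2.78 CPM). The villus of mouse 5 held the summed Brunner gland genes at 62.8 CPM (others 0 CPM). The crypt of mouse 7 held Sis at 0.963 CPM (others 0 CPM) and Slc28a2 at 0.963 CPM (others 0 CPM). The same library had Col1a1 at 308 CPM (others 128 to 153 CPM). The villus of mouse 3 stood apart for Nt5e at 26.4 CPM (others 0 to 3.83 CPM) and Cldn4 at 181 CPM (others 11.9 to 31.7 CPM). The crypt of mouse 6 stood apart for Igkv15-103 at 123 CPM (others 22.1 to 35.2 CPM).

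Some genes differed between groups of mice in their crypt-villus difference (edgeR, a test of the change itself, in log2). Toward the crypt at day 91 against day 8 these were Mcm2 (3.20, adjusted p = 0.0022), Cenpe (2.65, adjusted p = 0.02), Lyz1 (2.15, adjusted p = 0.0075), Defa22 (2.35, adjusted p = 0.0037), Defa24 (2.20, adjusted p = 0.0043), Rpl4 (1.05, adjusted p = 0.047) and Rpsa (1.53, adjusted p = 0.0076). The others were Rpl14 (1.45, adjusted p = 0.021), Defa32 (2.57, adjusted p = 0.0037), Fam210a (3.02, adjusted p = 0.0037), Igkv15-103 (3.18, adjusted p = 0.0022) and Gmds (1.94, adjusted p = 0.0076). Toward the villus it was Ncoa4 (-1.58, adjusted p = 0.037). At 180 ppm against untreated mice the change was toward the crypt for Mgam (0.82, adjusted p = 0.073), Ada (4.59, adjusted p = 0.0039) and Enpp3 (1.19, adjusted p = 0.059). It was toward the villus for Nkd1 (-3.50, adjusted p = 0.013), Anpep (-1.45, adjusted p = 0.0019), Reg3g (-2.98, adjusted p = 0.00088), Adh1 (-1.09, adjusted p = 0.027), Col1a1 (-1.38, adjusted p = 0.087) and Cd79a (-2.15, adjusted p = 0.051). It was also toward the villus for Rpl4 (-1.44, adjusted p = 0.00025), Rpl5 (-1.24, adjusted p = 0.033), Rpsa (-1.66, adjusted p = 0.00095), Rpl14 (-1.57, adjusted p = 0.003) and Fam210a (-2.53, adjusted p = 0.0095), as well as Igkv15-103 (-3.66, adjusted p = 4.1e-05), Igfbp3 (-2.89, adjusted p = 7e-08), Gmds (-2.65, adjusted p = 3e-06) and Mpeg1 (-1.86, adjusted p = 5.3e-05). Both sets of changes use the same untreated libraries of day 91.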

How the results depend on the processing

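Of the 95 named genes called in the comparison of crypt and villus, none turned its direction in any alternative. Between 62 (library size as a covariate) and 95 (without the pancreatic acinar genes) kept their call. Among gene lists, without the replicate block 11 replication, 5 digestive enzyme, 7 xenobiotic, 4 smooth muscle and 6 fibroblast genes passed, and from the 8 paired libraries alone 4 stem cell, 8 replication, 12 mitosis and 4 fibroblast genes. The medians of all lists kept their sign in 18 settings except the enteroendocrine, tuft, pancreatic acinar, Brunner gland, endothelial and erythrocyte lists. The design planned the fit with a trended dispersion as an alternative, but that is the installed default and was the fit reported, so the newer quasi-likelihood form was run in its place. That form, the fits without mice 5 and 7 and those without pancreatic acinar genes were chosen after seeing the data. The cause of a changed count was not tested.

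With library size (log10) as a covariate, 372 genes were higher in the crypt and 245 in the villus, 3 and 0 changed toward the crypt and the villus between the days (850 at an unadjusted p under 0.05, edgeR), and 2 and 26 between the doses. DESeq2 on all libraries without a replicate block gave 989 genes higher in the villus, 19 changed toward the villus between the days and 26 toward the crypt between the doses. The 8 paired libraries alone, with the replicate block, gave 606 genes higher in the crypt, and the 9 untreated libraries without it gave 779. Leaving out the replicate block, that is the pairing by mouse, gave 1429 and 578 genes in the comparison itself, but 9 and 0 for the change between the days (2337 at an unadjusted p under 0.05) and 1 and 56 for that between the doses. With DESeq2 size factors the change between the doses was 15 and 95.

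Without a filter beyond 1 count the change between the days was 145 and 8, and 14 genes changed toward the crypt between the doses. A mean count of at least 10 gave 3 and 0 (929 at an unadjusted p under 0.05) and 3 and 92. The newer form gave 6 toward the villus between the days and 17 toward the crypt between the doses. Thinned counts gave 0 and 0 between the days (1102 at an unadjusted p under 0.05, and 72 and 19 calls by DESeq2 on the full counts) and 4 and 72 between the doses. Without mice 48 and 49 the days gave 29 and 1. Without mice 5 and 7 there were 1071 genes higher in the crypt, 237 and 22 changed between the days and 19 and 242 between the doses. Without the pancreatic acinar genes the days gave 106 and 7, and 14 genes changed toward the crypt between the doses. At an adjusted p of 0.05 the days gave 1 toward the villus and the doses 2 and 93.

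Leaving out each mouse in turn gave 1015 (without mouse 5) to 1911 genes higher in the crypt and 293 (without mouse 3) to 422 in the villus. The change between the days ranged from 83 to 400 toward the crypt and from 4 to 17 toward the villus, and that between the doses from 13 to 21 and from 104 to 369, each highest without mouse 7. The trypsinogen genes turned their direction. Prss1 ranged from -1.83 without mouse 5 to 1.53 without mouse 6 and 1.60 without mouse 7, and Try4 from -1.20 without mouse 5 to 2.02 without mouse 7. The changes of Mcm2, Defa22, Fam210a and Igkv15-103 between the days kept their direction in all settings, with 4, 5, 3 and 3 lost calls of 17, and those of Igfbp3, Gmds, Igkv15-103 and Mpeg1 between the doses kept their calls in all 16. Villus libraries held fewer counts than crypt libraries, so low genes of the villus are the least precise.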
